A study of Mus musculus with 12 samples.

Results

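Cytosolic ribosomal protein genes encode the proteins of the ribosome that works in the cytoplasm. Members were the genes whose annotated symbol was Rpl or Rps followed by a number, with an optional letter, together with the stalk genes Rplp0, Rplp1 and Rplp2 and with Rpsa, while the kinase genes Rps6k were left out. In all, 75 symbols met this rule, and 59 of them, of 19937 genes measured, had a probe set that named 1 gene alone. These 59 members held 37 genes of the large subunit and 22 of the small subunit, Rps4l among the 22, which the RefSeq gene table annotates as a transcribed pseudogene, unlike every other member. The other 16 symbols, Rpl3, Rpl11, Rpl13a, Rpl15, Rpl17, Rpl31, Rpl32, Rpl35, Rpl35a, Rpl37, Rpl39, Rps16, Rps23, Rps24, Rps26 and Rps27, were named only by probe sets that carry several gene symbols and are not reported. The tissue was Lewis lung carcinoma, a transplantable mouse tumour line, resected from the lungs of female C57BL/6 hosts, and 12 Affymetrix mouse gene arrays were read. The 4 groups of 3 arrays each were hosts labelled RelA/p65 deficient and exposed to smoke, hosts labelled RelA/p65 deficient and exposed to air, wild type hosts exposed to smoke and wild type hosts exposed to air. RelA/p65 belongs to the NF-kB family of transcription factors, and the series title speaks of this protein in myeloid cells, but the labels give neither the deletion nor what drives it. Durations of exposure, ages and whether replicates were separate animals are likewise not in the labels, so every p-value covers no more than the spread between these arrays, which may be technical.

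A ribosome is built from ribosomal RNA, which RNA polymerase I transcribes in the nucleolus, and from ribosomal proteins that must be supplied in near-equal amounts. Their genes are among the most strongly expressed of growing cells, the transcription factor Myc raises many of them, and their messages start with a run of pyrimidines through which the kinase mTORC1 controls their translation. Several also act outside the ribosome, as Rpl5 and Rpl11 do when they bind Mdm2 and release p53. Each ribosomal protein gene of mammals has left many near-identical processed copies in the genome, so the probe set of a member can also bind RNA of such a copy.

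Sequence before the start of transcription was available for 47 of the 59 members, in a RefSeq promoter table of build GRCm38.p6 that runs from 250 bases before to 50 bases after each gene's start. Stretches from 100 bases before to 30 bases after the start are shown for 8 members, because they set the 4 genes of these 47 with the largest mean falls in arrays labelled deficient beside 4 members of high expression that did not pass the test. Capitals mark CCGGAAG (or its complement), the core of sites of ETS factors, the palindrome TCTCGCGAGA (TCTCG followed by its reverse complement), and any unbroken run of at least 6 C or T bases from 10 bases before to 15 bases after the start. The 4 with the largest falls were Rpl12 at chr2:32961612-32961741 (+ strand), Rps28 at chr17:33824533-33824662 (- strand), Rps10 at chr17:27635215-27635344 (- strand) and Rpl13 at chr8:123102250-123102379 (+ strand).
Rpl12: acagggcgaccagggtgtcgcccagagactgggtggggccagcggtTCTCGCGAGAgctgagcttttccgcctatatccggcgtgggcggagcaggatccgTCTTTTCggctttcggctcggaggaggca
Rps28: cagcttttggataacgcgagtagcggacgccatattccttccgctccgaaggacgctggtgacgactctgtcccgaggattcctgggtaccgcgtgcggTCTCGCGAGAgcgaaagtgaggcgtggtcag
Rps10: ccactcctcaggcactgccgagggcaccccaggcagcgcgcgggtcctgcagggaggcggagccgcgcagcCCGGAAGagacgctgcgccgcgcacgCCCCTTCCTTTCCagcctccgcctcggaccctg
Rpl13: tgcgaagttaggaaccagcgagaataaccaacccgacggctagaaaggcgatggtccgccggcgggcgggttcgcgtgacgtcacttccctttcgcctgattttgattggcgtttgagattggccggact
The 4 that did not pass were Rpl5 at chr5:107900428-107900557 (+ strand), Rpl9 at chr5:65391402-65391531 (- strand), Rpl10 at chrX:74270716-74270845 (+ strand) and Rps6 at chr4:86857338-86857467 (- strand).
Rpl5: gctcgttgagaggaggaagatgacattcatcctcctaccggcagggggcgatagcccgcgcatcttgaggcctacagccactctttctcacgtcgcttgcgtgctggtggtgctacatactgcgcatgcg
Rpl9: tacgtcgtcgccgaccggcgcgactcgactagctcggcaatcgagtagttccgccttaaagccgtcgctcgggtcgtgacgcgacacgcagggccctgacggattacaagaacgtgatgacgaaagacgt
Rpl10: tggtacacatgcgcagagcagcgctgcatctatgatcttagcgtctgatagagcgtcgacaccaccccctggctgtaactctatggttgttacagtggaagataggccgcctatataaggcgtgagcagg
Rps6: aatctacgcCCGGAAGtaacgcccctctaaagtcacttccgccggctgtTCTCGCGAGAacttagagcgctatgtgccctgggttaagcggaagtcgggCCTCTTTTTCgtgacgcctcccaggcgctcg
The palindrome stands in the windows of Rpl12 and Rps28 and in that of Rps6, CCGGAAG in those of Rps10 and Rps6, and a run of C or T in those of Rpl12, Rps10 and Rps6, while the windows of Rpl13, Rpl5, Rpl9 and Rpl10 hold no capitals. Bases outside the span around the start were not counted, so a longer run of C or T in Rpl13 that crosses its edge counts as 4 and is unmarked. Over the whole table, TCTCGCGAGA was found on either strand in 6 of 47 members (12.8%), namely Rpl10a, Rpl12, Rpl26, Rps19, Rps28 and Rps6, and in 0.525% of 27025 genes. CCGGAAG was found on either strand in 18 of 47 members (38.3%) and in 9.93% of all genes. The TATA box letters TATAAA, on either strand, were found in 6 members (12.8%) and in 15.7% of all genes, and the run of C or T near the start in 24 members (51.1%) and in 27.6% of all genes. The first 3 motifs do not overlap in their letters, and a run of C or T can overlap any of them. A match describes the letters in this window alone. The letters were not checked against a genome. The whole entries of Rpl9 and Rps28 hold more CG than GC pairs, which is uncommon among the entries. Within the stretches shown, those of Rpl13 and Rps6 do so as well.

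Arrays of the same group had a correlation over genes between 0.99 and 0.998, and array medians lay between 7.26 and 7.51 log2 units. Rela, which encodes RelA/p65, was not lower in arrays labelled deficient: the log2 difference from wild type was 0.23 ± 0.07 (SE; limma adjusted p = 0.00873) in smoke and 0.20 ± 0.07 (limma adjusted p = 0.0285) in air. With each array centred on its median it was 0.09 (limma adjusted p = 0.213) and 0.12 (0.142), and the call in air was lost without wild type air replicate 2 (0.106) or without deficient air replicate 1 (0.0797) or 2 (0.0900). Every direction below is therefore that of arrays labelled deficient, called deficient arrays for short. Levels are the log2 expression values that the authors deposited, a difference of 1 is a doubling, and differences are given with their SE and with a limma p adjusted over all 19937 genes, with 0.05 as the limit. Precision is limited by the small number of arrays.

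Deficient arrays held less RNA of nearly the whole set, in either exposure. In smoke, 51 of 59 members were lower in deficient arrays than in wild type arrays and 1 was higher, where 37.0% of all genes were lower and 22.7% higher. In air, 47 of 59 were lower and 1 was higher, where 18.0% of all genes were lower and 20.5% higher. The differences were small for each gene, with a member median of -0.39 in smoke and -0.34 in air, against medians over all genes of -0.14 and -0.03. Members ranged from -1.01 to 0.49 in smoke and from -0.85 to 0.59 in air. With each array centred on its median, 56 members were lower and 1 higher in smoke, where 60.1% of all genes were lower and 17.8% higher, and 50 were lower and 1 higher in air, where 25.8% were lower and 16.9% higher.

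The mean log2 level of the 59 members was 10.86, 10.74 and 10.73 in the arrays of deficient hosts in smoke and 10.80, 10.73 and 10.72 in those of deficient hosts in air. It was 11.18, 11.16 and 11.14 in wild type smoke and 11.09, 11.09 and 11.12 in wild type air. All 6 deficient arrays lay below all 6 wild type arrays, and smoke replicate 1 was the highest of the deficient arrays. In this bulk tissue, fewer cells of a type that is rich in these messages and less RNA per cell cannot be told apart.

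**Figure D1:**
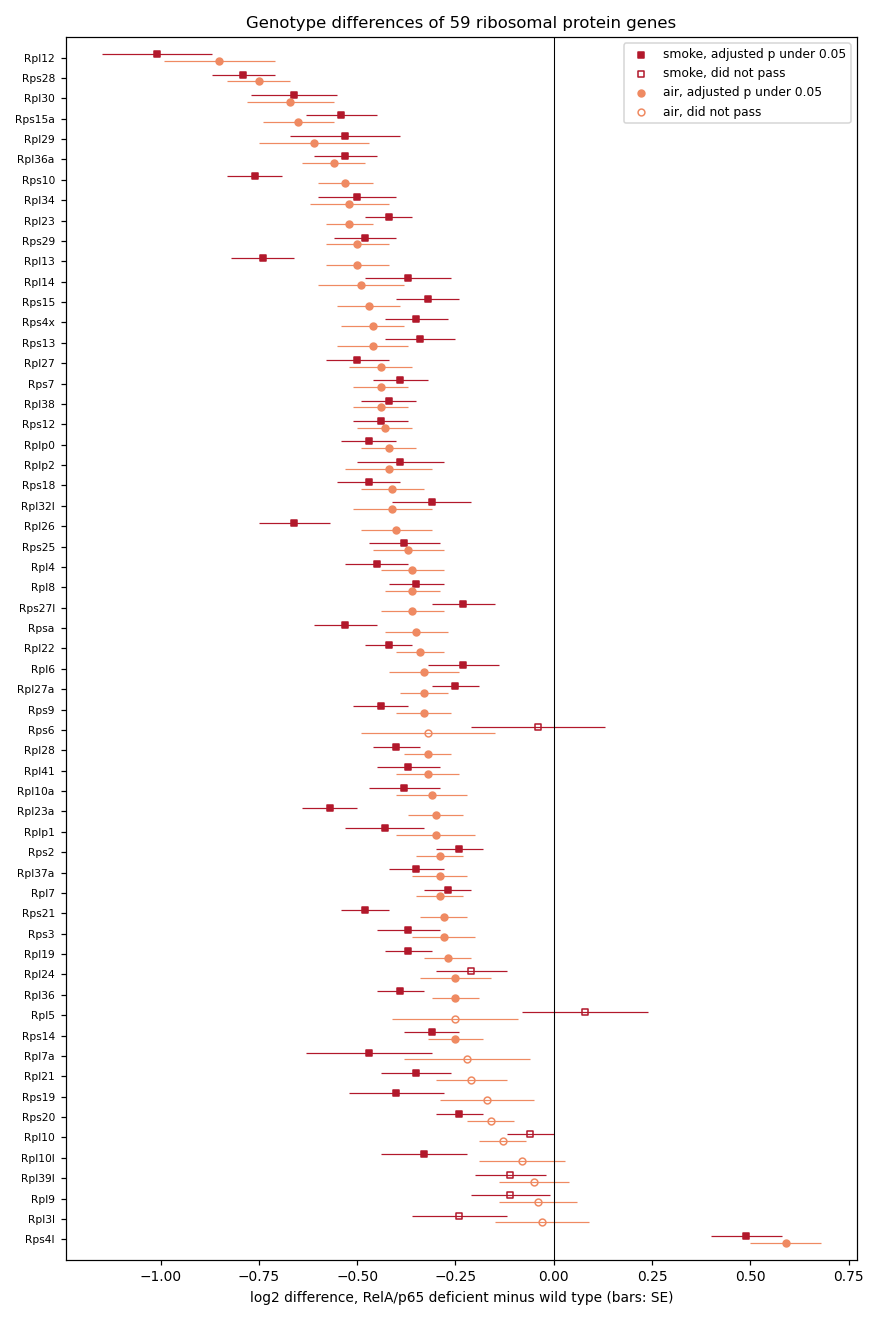
Log2 difference between deficient and wild type arrays in smoke (squares) and in air (circles), on the horizontal axis, with 1 row for each of the 59 members, bars of 1 SE from limma and open symbols for differences that did not pass. Almost every member lies below 0 in both exposures, Rps4l lies above 0 in both, and Rpl12 reaches -1.01 in smoke.

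Most members that were lower in the one exposure were also lower in the other. The differences in smoke and in air come from separate arrays, but the fit estimated the variance of each gene from all arrays together. Whether a member passed in smoke thus depended in part on the air arrays, and the reverse. Passing in both is therefore not an independent repeat. In both exposures 46 members were lower, which is 90.2% of the 51 lower in smoke and 97.9% of the 47 lower in air. Of all genes, 15.7% were lower in both. Rpl24 passed in air alone and Rpl10l, Rpl21, Rpl7a, Rps19 and Rps20 in smoke alone, but 0 members passed the test of the difference between the exposures. Rps4l was higher in both, and 6 members, Rpl10, Rpl39l, Rpl3l, Rpl5, Rpl9 and Rps6, passed in neither. Across the 59 members the 2 sets of differences had a Pearson r of 0.81 and a Spearman rho of 0.65, and across all genes a Pearson r of 0.79. The 3 deficient arrays lay wholly below the 3 wild type arrays for 44 members in smoke and 51 members in air, where this held for 37.6% and 26.3% of all genes.

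Among proteins of the large subunit, 31 of 37 were lower in smoke and 29 of 37 in air, with medians of -0.39 and -0.33, and 0 were higher. Rpl12, at the base of the stalk that recruits elongation factors, had the largest difference in both (probe set 10471550). Its log2 level was 8.01, 7.43 and 7.80 in deficient smoke and 8.86, 8.68 and 8.73 in wild type smoke. It was 7.87, 7.46 and 7.53 in deficient air and 8.67, 8.42 and 8.33 in wild type air. The groups did not overlap in either exposure, although deficient replicates spread more widely than those of wild type, with an SD of 0.29 in deficient smoke. The difference was -1.01 ± 0.14 in smoke (2.02-fold lower; limma adjusted p = 4.83e-05) and -0.85 ± 0.14 in air (1.80-fold lower; limma adjusted p = 3.27e-04).

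Rpl13, a protein of the large subunit, had 12.39, 12.12 and 12.12 in deficient smoke and 12.92, 12.99 and 12.95 in wild type smoke. In air it had 12.42, 12.27 and 12.20 in deficient arrays and 12.73, 12.81 and 12.85 in wild type arrays. Deficient arrays were lower throughout, by 0.74 ± 0.08 in smoke (1.67-fold; limma adjusted p = 5.87e-06) and by 1.41-fold in air (limma adjusted p = 3.21e-04). Rpl30, whose yeast counterpart controls the splicing of its own message, had 9.35, 9.02 and 9.15 in deficient smoke and 9.77, 9.96 and 9.79 in wild type smoke. Its difference was -0.66 ± 0.11 in smoke (limma adjusted p = 2.16e-04) and -0.67 ± 0.11 in air (limma adjusted p = 2.88e-04), nearly the same in both exposures. Rpl26, which has also been described to bind the p53 message, was 8.48, 8.21 and 8.30 in deficient smoke and 9.15, 8.94 and 8.90 in wild type smoke, with groups apart and a difference of -0.66 ± 0.09 (limma adjusted p = 4.54e-05). Rpl29 and the X-linked Rpl36a were among the larger falls in air, at -0.61 ± 0.14 (limma adjusted p = 0.00374) and -0.56 ± 0.08 (limma adjusted p = 5.36e-05).

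**Figure D2:**
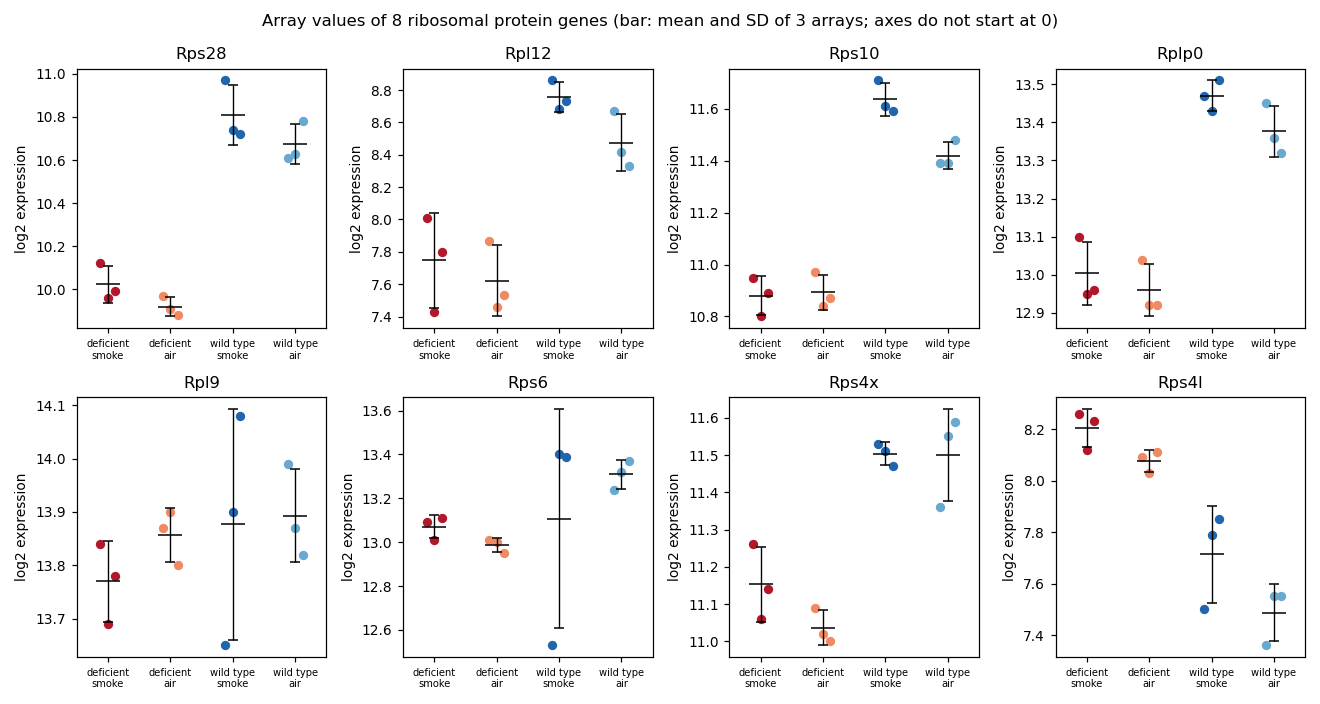
Log2 expression (vertical axes, which do not start at 0) of 8 members by array, with the 3 arrays of each group as points and bars for mean and SD, in the order deficient smoke, deficient air, wild type smoke and wild type air. Rps28, Rpl12, Rps10, Rplp0 and Rps4x show deficient arrays below wild type arrays, Rps4l shows them above, Rpl9 shows overlap, and in Rps6 wild type smoke replicate 1 lies at 12.53 below the other wild type arrays.

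The stalk proteins, which carry the acidic tails that activate translation factors, were lower with Rpl12. Rplp0, often used as a reference gene for quantitative PCR, had 13.10, 12.95 and 12.96 in deficient smoke and 13.47, 13.43 and 13.51 in wild type smoke. In air it had 13.04, 12.92 and 12.92 in deficient arrays and 13.45, 13.36 and 13.32 in wild type arrays. The groups did not overlap, and Rplp0 was 1.38-fold lower in smoke (limma adjusted p = 5.53e-05) and 1.34-fold lower in air (limma adjusted p = 2.06e-04). Rplp1 was 1.34-fold lower in smoke (limma adjusted p = 0.00239) and 1.24-fold lower in air (limma adjusted p = 0.0251), and in air it missed the limit without deficient air replicate 2 (limma adjusted p = 0.0638) or 3 (0.0992) and without wild type air replicate 1 (0.0816) or 2 (0.0900). Rplp2 was 1.31-fold lower in smoke (limma adjusted p = 0.00791) and 1.34-fold lower in air (limma adjusted p = 0.00718). Rpl22, which is not required for the ribosome itself and acts in lymphocyte development, was 1.34-fold lower in smoke (limma adjusted p = 8.79e-05) and 1.27-fold lower in air (limma adjusted p = 6.88e-04).

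Among members of the small subunit, 20 of 22, Rps4l counted, were lower in smoke and 18 of 22 in air, with medians of -0.38 and -0.37. Rps28, of the head of the subunit, had 10.12, 9.96 and 9.99 in deficient smoke and 10.97, 10.74 and 10.72 in wild type smoke. In air it had 9.97, 9.91 and 9.88 in deficient arrays and 10.61, 10.63 and 10.78 in wild type arrays (probe set 10539700). The highest deficient array was below the lowest wild type array, and the difference was -0.79 ± 0.08 in smoke (1.73-fold lower; limma adjusted p = 2.38e-06) and -0.75 ± 0.08 in air (1.68-fold lower; limma adjusted p = 7.55e-06).

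Rps10, which lies near the entry of the mRNA channel and is mutated in some patients with Diamond-Blackfan anaemia, had 10.95, 10.80 and 10.89 in deficient smoke and 11.71, 11.61 and 11.59 in wild type smoke. In air it had 10.97, 10.84 and 10.87 in deficient arrays and 11.39, 11.39 and 11.48 in wild type arrays (probe set 10494296). The 2 genotypes were apart in both exposures, with a difference of -0.76 ± 0.07 in smoke (1.69-fold lower; limma adjusted p = 5.21e-07, the smallest of the members) and 1.44-fold lower in air (limma adjusted p = 2.95e-05). Rps15a, a small subunit protein, was 8.27, 8.29 and 7.99 in deficient air and 8.93, 8.89 and 8.67 in wild type air, apart, with a difference of -0.65 ± 0.09 (limma adjusted p = 7.69e-05). Rpsa, which doubles as a laminin receptor, was 1.44-fold lower in smoke (limma adjusted p = 9.33e-05) and 1.27-fold lower in air (limma adjusted p = 0.00352). Rps18, a small subunit protein whose gene also serves as a reference gene, was 1.39-fold lower in smoke (limma adjusted p = 1.83e-04) and 1.33-fold lower in air (limma adjusted p = 8.01e-04). Rps14, whose loss marks the 5q- syndrome, was 1.24-fold lower in smoke (limma adjusted p = 0.00166) and 1.19-fold lower in air (limma adjusted p = 0.00976). Rps19, the gene most often mutated in Diamond-Blackfan anaemia, was 1.32-fold lower in smoke (limma adjusted p = 0.0120) but not past the limit in air (limma adjusted p = 0.311), and in smoke it missed the limit without deficient smoke replicate 2 (limma adjusted p = 0.0631).

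Rps6, the substrate of S6 kinase that is used to read mTORC1 activity, is a member whose call turned on 1 array and on the setting. It had 13.09, 13.01 and 13.11 in deficient smoke and 12.53, 13.40 and 13.39 in wild type smoke, and it had 13.01, 13.00 and 12.95 in deficient air and 13.24, 13.32 and 13.37 in wild type air. Wild type smoke replicate 1 was the lowest of all 12, and in air the 2 genotypes did not overlap. In the fit it passed in neither exposure (limma adjusted p = 0.851 in smoke and 0.173 in air), but without wild type smoke replicate 1 it passed in both, at -0.33 in smoke (limma adjusted p = 6.48e-04) and -0.32 in air (limma adjusted p = 4.28e-04). Rps6 also passed in smoke and in air with array weights (limma adjusted p = 0.00408 and 0.0131) and with the mean of probe sets (0.00215 and 0.00159). With the 6 arrays of the comparison alone it passed in air (limma adjusted p = 0.0022). Rpl5, of the complex with 5S ribosomal RNA, ranged from 12.54 to 12.77 in deficient smoke and from 12.28 to 12.91 in wild type smoke, with overlap. Rpl10, which joins the large subunit last, was 13.59, 13.58 and 13.60 in deficient air and 13.70, 13.69 and 13.76 in wild type air, apart but by 1.09-fold (limma adjusted p = 0.0887). This call turned on the setting, since in air Rpl10 passed with array weights (limma adjusted p = 0.0475), a trend in the prior (0.024), genes of a mean of at least 10 (0.0139), the mean of probe sets (0.00214), median centring (0.0185) and quantile normalization (0.000652). In smoke it passed with the last 3 of these (limma adjusted p = 0.00137, 0.0108 and 0.0127). Rpl9, of the large subunit, overlapped in both exposures, at 13.69 to 13.84 in deficient smoke and 13.65 to 14.08 in wild type smoke.

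The member that went the other way was Rps4l, the Rps4x-like locus annotated as a transcribed pseudogene. Rps4l had 8.26, 8.12 and 8.23 in deficient smoke and 7.50, 7.79 and 7.85 in wild type smoke, and it had 8.09, 8.03 and 8.11 in deficient air and 7.36, 7.55 and 7.55 in wild type air (probe set 10542872). All deficient arrays were above all wild type arrays, by 0.49 ± 0.09 in smoke (1.41-fold; limma adjusted p = 4.94e-04) and by 0.59 ± 0.09 in air (limma adjusted p = 1.67e-04). Its X-linked relative Rps4x was lower, 1.27-fold in smoke (limma adjusted p = 0.00164) and 1.38-fold in air (limma adjusted p = 2.57e-04). Of the protein-coding paralogues, Rps27l, a p53-induced gene, was 1.17-fold lower in smoke (limma adjusted p = 0.0257) and 1.28-fold lower in air (limma adjusted p = 0.00304), but in smoke it missed the limit without deficient smoke replicate 2 (limma adjusted p = 0.0904) or 3 (0.107) and without wild type smoke replicate 2 (0.0829). Rpl10l, a testis gene, was 1.26-fold lower in smoke alone (limma adjusted p = 0.0223) and missed the limit without deficient smoke replicate 1 (0.0625) or 3 (0.107) and without wild type smoke replicate 1 (0.0566) or 3 (0.0650). The testis gene Rpl39l and the striated muscle gene Rpl3l were the only 2 members with a mean log2 level under 6, and they passed in no comparison of the reported fit. In smoke, however, Rpl3l was lower in deficient arrays with array weights (-0.36; limma adjusted p = 0.0016), with median centring (-0.39; 0.00566) and without wild type smoke replicate 1 (-0.37; 0.00795). With smoke in wild type hosts it was higher with array weights (0.34; limma adjusted p = 0.00894) and without that replicate (0.32; 0.0303). Rpl39l passed with median centring alone, lower in deficient smoke (-0.25; limma adjusted p = 0.0229) and higher with smoke in wild type hosts (0.26; 0.0318).

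Since a member's result came from its brightest probe set, all probe sets that named a member alone were also fitted. There were 191 of them, and 38 members had several, up to 10. In smoke 142 of 191 were lower and 3 higher in deficient arrays, where 36.3% of all 21640 probe sets were lower and 23.0% higher. In air 124 were lower and 3 higher, where 18.0% were lower and 20.5% higher. All 9 probe sets of Rpl13, 5 of Rpsa and 4 of Rps29 were lower in both exposures, and both of Rps4l were higher in both. Members that had not passed by their brightest probe set were split: 4 of 7 probe sets of Rps6 were lower in each exposure, 1 of 4 of Rpl5 in smoke and 2 of 4 in air, 2 of 8 of Rpl9 in smoke and 0 in air, and 1 of 5 of Rpl10 in each. Some members that had passed were split as well, with 3 of 6 probe sets of Rps25 lower in each exposure. Of Rpl23a 9 of 10 were lower in smoke and 3 in air, and of Rps18 4 of 7 in smoke and 6 in air. A probe set of Rps18 nearly as bright as the one used had -0.02 in smoke (limma p adjusted over probe sets = 0.914). The probe sets of Rpl21 pointed both ways, from -1.12 to 1.19 in smoke and from -1.11 to 0.89 in air, with 1 higher in each. Which of them read the gene itself and which a processed copy was not tested.

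**Figure D3:**
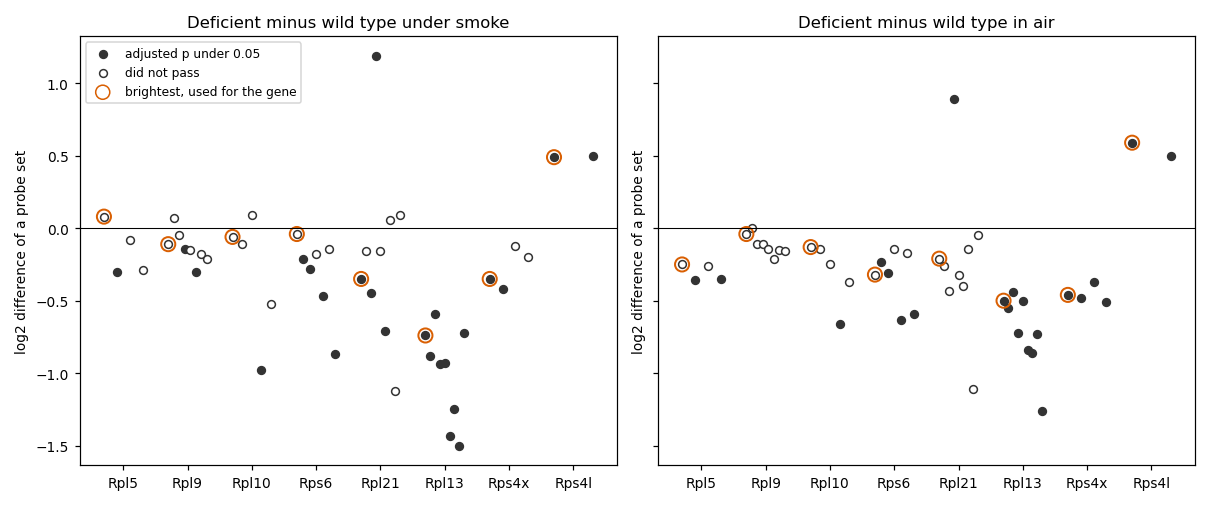
Log2 difference between deficient and wild type arrays for each probe set of 8 members, in smoke (left) and in air (right). Filled points passed the test, open points did not, and a ring marks the brightest probe set. All 9 of Rpl13 lie below 0, those of Rps4l lie above, and those of Rpl21 spread to both sides.

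Because 42 of the 59 members had a mean log2 level of at least 10, the comparison was also made among 1789 genes of that brightness, an alternative chosen after seeing the data. Of these 42 members, 38 (90.5%) were lower in smoke and 39 (92.9%) in air and 0 were higher, where 45.1% and 42.6% of the bright genes were lower and 33.9% and 30.5% were higher. The member medians were -0.39 in smoke and -0.33 in air, against -0.07 over the bright genes in both exposures.

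By their brightest probe sets, smoke against air moved few of these genes. In wild type hosts 2 of 59 members were higher in smoke and 0 lower, where 15.0% of all genes were higher and 14.0% lower. The member median was 0.07, against 0.08 over all genes, with a range from -0.22 to 0.29. Of the 191 member probe sets, 15 were higher and 0 lower, beside the 15.0% and 14.0% of all genes. The share of all 21640 probe sets called was not counted, and the medians were 0.07 for member probe sets and 0.08 for all. Rps10 was higher by 0.22 ± 0.07 (limma adjusted p = 0.0267) and Rpl36, of the large subunit, by 0.16 ± 0.06 (limma adjusted p = 0.0470). Rpl36 had 12.61, 12.65 and 12.67 in wild type smoke and 12.47, 12.54 and 12.44 in wild type air, apart by a narrow gap. Both calls were lost with the 6 wild type arrays alone (limma adjusted p = 0.0928 and 0.178), that of Rpl36 also without any 1 of 10 arrays, and that of Rps10 without wild type air replicate 1 (0.0750) or 2 (0.0635). Both also missed the limit with the mean of probe sets (0.108 and 0.0792). The other probe set of Rps10 moved by 0.06 (limma p adjusted over probe sets = 0.58). Several other probe sets of Rpl36 passed, from 0.25 (limma p adjusted over probe sets = 0.0181) to 0.37 (0.0114), while those at -0.22 (0.487) and 0.30 (0.646) did not. With each array centred on its median, 18 members were higher and 0 lower, where 38.1% of all genes were higher and 11.3% lower. Without wild type smoke replicate 1 the count was 5, 4 higher and 1 lower, without wild type air replicate 1 it was 0, without wild type air replicate 3 it was 2, and without any other array it was 1. Of all genes, 8824 were called without wild type smoke replicate 1 and 4868 without wild type air replicate 1, against 5778 with all arrays.

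In deficient hosts limma called 0 members with smoke, where 0.692% of all genes were higher and 1.72% lower. There, 2 members had an unadjusted p under 0.05, the smallest adjusted p was 0.14 and the median was 0.02. The interaction, the difference between deficient and wild type hosts in the response to smoke, also called 0 members, with 2 at an unadjusted p under 0.05, a smallest adjusted p of 0.0917 and a median of -0.05. Of all genes 8.89% had a positive and 5.7% a negative interaction. Of the 191 member probe sets, 0 had a positive and 3 a negative interaction, with a median of -0.04 against -0.07 over all 21640 probe sets. Here too the share of all probe sets called was not counted. With each array centred on its median, 1520 of 3669 interactions called were positive, against 1773 of 2909 on the deposited scale.

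The other genes of the pathway were taken from lists. For scale, of all genes 37.0% were lower and 22.7% higher in deficient smoke, and 18.0% were lower and 20.5% higher in deficient air. Of 58 ribosome assembly factors measured, the proteins that process ribosomal RNA and build the subunits, 55 were lower and 1 higher in deficient smoke and 51 were lower and 1 higher in deficient air, with medians of -0.64 and -0.43. Dcaf13, of the small subunit processome, fell by 0.94 ± 0.07 in smoke (limma adjusted p = 7.09e-08) and by 0.63 ± 0.07 in air (limma adjusted p = 7.54e-06). The endonuclease Nob1, which makes the final cut in 18S RNA, fell by 1.06 ± 0.09 in smoke (limma adjusted p = 5.74e-07), and Pwp2, of the same processome, by 0.74 ± 0.07 (limma adjusted p = 5.69e-07). In air, Wdr12, of the large subunit's PeBoW complex, fell by 0.99 ± 0.10 (limma adjusted p = 5.79e-06) and Nop58, a core protein of box C/D particles, by 0.88 ± 0.10 (limma adjusted p = 1.24e-05).

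With smoke in wild type hosts, 29 of 58 assembly factors were higher and 1 lower (1.72%), with a median of 0.27, where 15.0% of all genes were higher and 14.0% lower. Rrp12 rose by 0.52 ± 0.08 (limma adjusted p = 3.96e-04), Nmd3, the export adaptor of the large subunit, by 0.37 ± 0.06 (limma adjusted p = 8.27e-04) and Pwp2 by 0.36 ± 0.07 (limma adjusted p = 0.00110). With smoke in deficient hosts 0 of 58 passed the test. A negative interaction was called for 5 (8.62%), where 5.7% of all genes had one. Of these calls, those of Ltv1 and Nmd3 were lost without several single arrays (limma adjusted p up to 0.0917 and 0.0939).

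Of 14 genes of RNA polymerase I transcription, 13 were lower in deficient smoke (92.9%) and 10 in deficient air (71.4%), and 0 were higher. Their medians were -0.43 and -0.31, and of all genes 37.0% and 18.0% were lower. Taf1d, a subunit of the promoter selectivity factor, fell by 1.57 ± 0.14 in smoke (limma adjusted p = 5.56e-07) and by 1.33 ± 0.14 in air (limma adjusted p = 5.74e-06). Of the polymerase subunits, Polr1c fell by 0.59 ± 0.07 in smoke (limma adjusted p = 9.99e-06) and by 0.54 ± 0.07 in air (limma adjusted p = 3.47e-05), Polr1e by 0.71 ± 0.09 in smoke and Polr1a by 0.82 ± 0.11 in air. In wild type hosts 4 of the 14 (28.6%) were higher with smoke and 0 lower, where 15.0% of all genes were higher and 14.0% lower.

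Of 30 translation initiation factors, 20 were lower (66.7%) and 2 higher (6.67%) in deficient smoke. In deficient air 17 were lower (56.7%) and 0 higher, and the medians were -0.31 in smoke and -0.22 in air. Eif4b, a partner of the cap-binding helicase and a target of S6 kinase, fell by 0.78 ± 0.07 in smoke and by 0.65 ± 0.07 in air, and Eif3e, of the eIF3 complex, by 0.78 ± 0.08 and 0.65 ± 0.08. The helicase Eif4a2 rose by 0.57 ± 0.07 in deficient smoke (limma adjusted p = 1.25e-05). Of 12 elongation factors, 7 were lower and 1 higher in smoke and 6 were lower and 2 higher in air. The exchange factors Eef1b2 and Eef1d fell by 0.79 ± 0.08 and 0.59 ± 0.07 in smoke and by 0.69 ± 0.08 and 0.63 ± 0.07 in air, while Eif5a2, a paralogue of a factor that helps peptide bonds form, rose by 0.48 ± 0.07 in smoke and 0.59 ± 0.07 in air.

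Of 18 genes of mTORC1 and S6 kinase signalling, 8 were lower in deficient smoke (44.4%) and 7 in deficient air (38.9%), with 0 higher, where 37.0% and 18.0% of all genes were lower. Members of either sign of the pathway were among them: Eif4ebp1, the translation repressor that mTORC1 inactivates, fell by 0.83 ± 0.08 in smoke and by 0.52 ± 0.08 in air, Mlst8, a subunit of the complex, by 0.73 ± 0.08 and 0.42 ± 0.08, and Ddit4, an inhibitor of it, by 1.16 ± 0.10 in smoke (limma adjusted p = 3.03e-07). Outside the symbol rule, the ribosomal protein gene Fau fell by 0.44 ± 0.07 in smoke (limma adjusted p = 1.15e-04) and by 0.19 ± 0.07 in air (limma adjusted p = 0.0370). Rpl7l1, an Rpl7-like gene, fell by 0.50 ± 0.09 in smoke (limma adjusted p = 0.000287) and by 0.34 ± 0.09 in air (limma adjusted p = 0.00671). In air Fau missed the limit without deficient air replicate 1 (0.0614), 2 (0.0729) or 3 (0.131), deficient smoke replicate 3 (0.0510) or wild type air replicate 2 (0.0885) or 3 (0.102).

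Mitochondrial ribosomal proteins, which form the separate ribosome of the mitochondrion, were also lower for the most part in smoke. Of 77, 52 were lower and 3 higher in deficient smoke and 36 were lower and 0 higher in deficient air, which is 67.5% and 46.8%, where 86.4% and 79.7% of the cytosolic members were lower. Their medians were -0.29 and -0.20, against -0.39 and -0.34 for the members, and the difference between the 2 lists was not tested. Of all genes, 37.0% were lower in smoke and 18.0% in air. Mrps6 fell by 0.80 ± 0.11 in smoke and by 1.09 ± 0.11 in air (limma adjusted p = 3.33e-06), Mrps18b by 1.01 ± 0.11 in smoke and Mrpl2 by 0.61 ± 0.07 in smoke and by 0.49 ± 0.07 in air. With smoke in wild type hosts 12 were higher (15.6%) and 1 lower (1.3%), where 15.0% and 14.0% of all genes were.

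**Figure D4:**
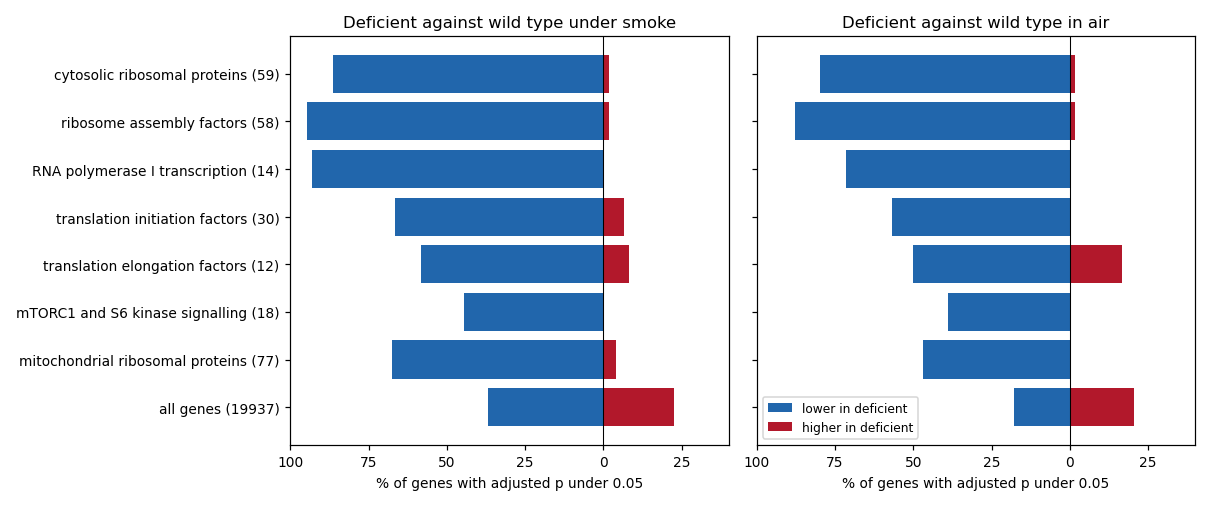
Percent of measured genes higher (to the right) and lower (to the left) at a limma adjusted p under 0.05, in deficient against wild type arrays, for members, pathway lists and all genes, in smoke (left panel) and in air (right panel). In smoke, bars to the left reach 94.8% for assembly factors, 92.9% for RNA polymerase I genes and 86.4% for members, where all genes have 37.0%.

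Markers of several cell types moved with these groups. The counts stand beside 37.0% of all genes lower and 22.7% higher in deficient smoke, and 18.0% lower and 20.5% higher in deficient air. The 11 dividing cell markers measured were all lower in deficient arrays in both exposures, with medians of -1.46 in smoke and -1.11 in air, and their mean log2 level spanned 8.31 to 8.89 in deficient smoke, 8.45 to 8.67 in deficient air, 9.97 to 10.08 in wild type smoke and 9.60 to 9.75 in wild type air. Deficient smoke replicate 1 was the highest deficient array in this list as in the members. Myc fell by 1.60 ± 0.14 in smoke (limma adjusted p = 4.16e-07) and by 0.72 ± 0.14 in air (limma adjusted p = 8.83e-04), and the proliferation marker Mki67 by 1.48 ± 0.14 and 1.11 ± 0.14.

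The 14 alveolar epithelial markers were all higher in deficient arrays, with medians of 2.88 in smoke and 0.85 in air. Whether this RNA came from host lung or from tumour cells was not tested. Their mean log2 level spanned 11.56 to 11.69 in deficient smoke, 11.62 to 11.67 in deficient air, 8.61 to 8.78 in wild type smoke and 10.68 to 10.88 in wild type air. Of endothelial markers 9 of 9 were higher in both exposures, of T and NK cell markers 9 of 9 in both, of airway markers 8 of 8 in smoke and 5 of 8 in air, and of B cell markers 6 of 7 in both. Neutrophil markers were higher for 7 of 9 in each exposure, and muscle markers for 9 of 10 in each. Macrophage markers were higher for 1 and lower for 7 of 10 in smoke and higher for 8 in air. Fibroblast markers were higher for 3 and lower for 5 of 8 in smoke and 3 and 3 in air, and erythroid markers were higher for 2 of 3 in each. Only the neutrophil and the fibroblast list held a gene with a mean level under 6, 1 each.

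With smoke in wild type hosts all 14 alveolar markers were lower, with a median of -1.91, and all 10 macrophage markers were higher, with a median of 1.11. Of the 11 dividing cell markers, 5 were higher and 0 lower, with a median of 0.41. The median of the ribosomal protein genes was 0.07. Of all genes, 15.0% were higher and 14.0% lower in that comparison. What part of the genotype difference in ribosomal protein genes came with the mix of cells was not tested.

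**Figure D5:**
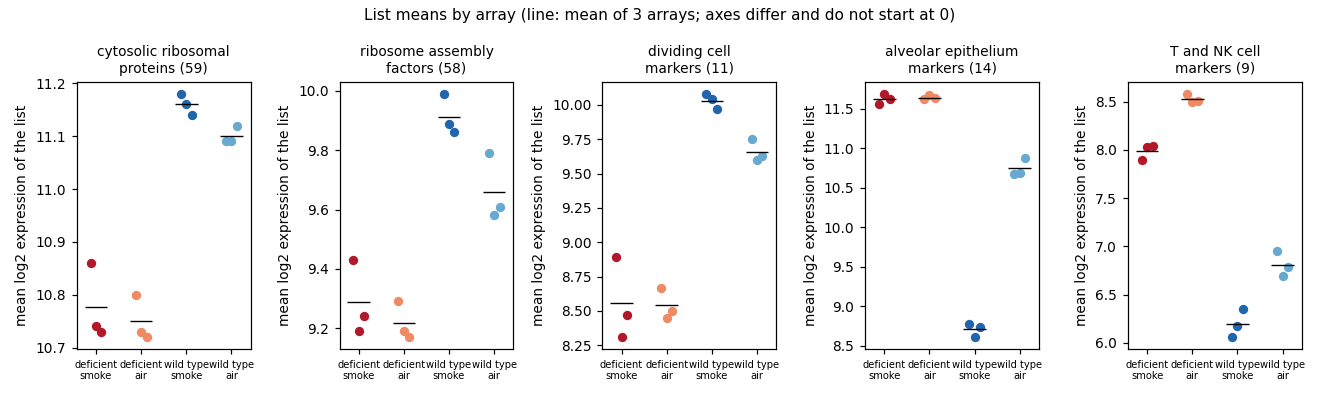
Mean log2 level of the members, assembly factors and 3 marker lists in each array (axes differ and do not start at 0), in the order deficient smoke, deficient air, wild type smoke and wild type air. Members lie between 10.72 and 10.86 in deficient arrays and between 11.09 and 11.18 in wild type arrays, while alveolar markers lie between 8.61 and 8.78 in wild type smoke, below the other groups.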

How the data were processed

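RNA from 12 samples was measured on Affymetrix mouse gene arrays, 3 in each of 4 groups. The authors deposited log2 values made with RMA in Affymetrix Expression Console, per the submitters' processing notes; versions are not given in the sources used here. The table held 34760 probe sets, of which the platform annotation listed 22961. Those that named 1 gene (21640) were kept, and the brightest by mean stood for each of 19937 genes. All 59 members matched a GRCm38.p6 gene table and 0 symbols changed. Of the members, 18 are also named by probe sets with several genes, which were not used.

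In limma, 4 group means were estimated from all 12 arrays together (residual df 8, prior df 4.83) and 5 contrasts were tested 2-sided, with Benjamini-Hochberg adjustment over all genes and a limit of 0.05. The model was tested on simulated data. Lists are described by counts and medians, with no test. Named genes were the 6 largest rises and 6 largest falls of a contrast among members past the test with groups apart, a fixed set of members, the 3 smallest p-values of each of the 7 pathway lists, and Rela, Myc and Mki67; 11 marker lists were counted. The members and lists were chosen with earlier results of these data known. Alternatives tried were a filter on dim genes (kept at log2 6 or more in 3 or more arrays), the mean of probe sets, an intensity trend, array weights, quantile normalization, median centring, a replicate block, the 6 arrays of a comparison alone, a wider symbol rule and leaving out each array, and, added after seeing the data, genes with a mean of at least 10 and every probe set. Promoter letters came from a RefSeq table. R 4.3.3, limma 3.58.1, Python 3.11.15, pandas 2.3.3 and matplotlib 3.10.9 were used.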

Additional observations from a re-analysis of the deposited data

How the results depend on the processing

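The genotype comparisons kept the direction of their medians, with 47 to 52 members called in either direction in smoke and 45 to 51 in air over fits that left out 1 array, and medians from -0.42 to -0.36 and from -0.37 to -0.33. Of all genes, 9853 were called in smoke without deficient smoke replicate 2, against 11886 with all arrays. In air, 6590 were called without deficient air replicate 3, against 7674. Centring each array on its median moved the member medians to -0.53 in smoke, -0.42 in air, 0.16 for smoke in wild type hosts and -0.11 for the interaction. It moved the all-gene medians to -0.28, -0.11, 0.17 and -0.14 as well.

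Members called for smoke in wild type hosts depended most on the setting, with 2 in the reported fit, 18 with median centring, 8 with array weights, 5 with quantile normalization, 4 with a trend in the prior, 4 among genes with a mean of at least 10, 1 with the mean of probe sets, 0 with the 6 arrays alone and 0 to 5 without 1 array. Without wild type smoke replicate 1 it was 5, without wild type air replicate 1 it was 0. Calls over all 19937 genes moved as well, from 5778 in the reported fit to 9852 with median centring and 10211 with array weights. They were 6995 with quantile normalization, 5799 with a trend in the prior, 5816 with the mean of probe sets and 3454 with the 6 arrays alone. Of the 1789 genes with a mean of at least 10, 797 were called. For smoke in deficient hosts array weights gave 2 members, where 1368 of all genes were called, against 481 in the reported fit. The interaction had 2 with array weights, 2 among genes with a mean of at least 10, 1 with median centring and 1 with a trend in the prior. In the same order, 6662, 520, 3669 and 2984 of all genes fitted had an interaction called, against 2909 in the reported fit. The cause of these shifts was not tested. Arrays that share a replicate number showed no steady correlation (18 pairs of groups and numbers, r from -0.36 to 0.37, 7 of them over 0.1). So few arrays cannot settle whether the numbers mark a pairing or a batch. With the replicate block 51 members and 11919 of all genes were called in smoke, and 47 and 7778 in air. For smoke in wild type hosts 2 members and 6084 of all genes were called, and 0 members in the other comparisons. Rpl36 was not among these 2 members (limma adjusted p = 0.0538). Over named genes and settings, 3671 values kept their call, 53 passed where the reported fit did not and 105 no longer passed. Of values that had passed in the reported fit, 0 changed direction. For values that had not passed, a change of direction was not counted. The 3 arrays of a group and probe sets that may bind gene copies limit these values.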
